A study of Homo sapiens with 45 samples.

Results

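The Sm, LSm and SF3 genes encode the core proteins of the spliceosome's small nuclear ribonucleoproteins (snRNPs), and their messenger RNA was measured in 3 human neuroblastoma lines treated with palbociclib (PB). PB is a small-molecule inhibitor of CDK4/6, the kinases that phosphorylate RB and let cells pass from G1 into S phase. Members were the gene symbols made of SNRP and further letters or digits, of LSM and a number with at most 1 letter, or of SF3A or SF3B and 1 digit. Antisense genes and 29 pseudogene symbols were left out. This gave 34 genes of the 29159 in the count tables. The rule reads symbols and no measured value, but it was set with earlier results of these data known.

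SK-N-BE(2)C (*MYCN*-amplified), IMR-32 (*MYCN*-amplified) and SH-SY5Y (*ALK*-mutant) are established lines of the adrenergic type, a noradrenergic-like neuroblastoma state. Where 3 values stand together without line names, they follow this order. Each was sequenced as polyadenylated RNA in 5 control libraries, 5 libraries after 24 h of PB and 5 after longer PB, which was 7 d in SK-N-BE(2)C and 5 d in IMR-32 and SH-SY5Y. That makes 45 libraries in 9 groups, which the study's methods describe as separate experiments on different passages of each line. PB was given at 1 μM, and the same control libraries, collected with the 24-h cells, served both treatment times. The 24-h and longer changes of a line are therefore not independent, and longer PB cannot be told apart from longer culture. Across lines, 7 d against 5 d cannot be told apart from the line.

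The Sm proteins, B/B′ (*SNRPB*), D1, D2, D3, E, F and G, form a ring on the U1, U2, U4 and U5 small nuclear RNAs. In the cytoplasm the SMN complex loads this ring onto the RNA, after the PRMT5 methylosome has methylated some of its subunits. LSm proteins form related rings: LSm2-8 sits on nuclear U6 RNA, whereas LSm1-7, which differs by carrying LSM1 in place of LSM8, sits on the 3′ ends of cytoplasmic mRNAs and promotes their decapping. SF3a and SF3b are the multi-subunit parts of the U2 snRNP that hold it on the intron branch point, and *LSM10* and *LSM11* stand in for D1 and D2 in the U7 snRNP, which processes the 3′ ends of histone mRNAs. Dividing cells make new snRNPs along with the rest of their RNA-processing machinery.

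Each library held 13459219 to 25441812 counts (median 18494528). In IMR-32, library 5 of each group and 24-h library 2 stood farthest from their groups (median absolute log2 deviation up to 0.264, against 0.0306 to 0.169 in the other libraries). In SK-N-BE(2)C, libraries 3 to 5 of the control and 24-h groups lay closer to each other than to libraries 1 and 2 (median absolute log2 difference 0.0419 to 0.0618 against 0.0916 to 0.14). The 8 E2F-driven cell cycle genes (*E2F1*, *E2F8*, *CCNE2*, *RRM2*, *MCM5*, *CDC6*, *MKI67* and *CDK1*), listed to check the treatment, all fell at 24 h in each line, with median log2 changes of -2.87, -3.68 and -3.83. All 8 adrenergic markers were at 1 or more CPM (the counts-per-million scale) on average in IMR-32 and SK-N-BE(2)C, and 7 of 8 were in SH-SY5Y, where *TH*, the rate-limiting enzyme of catecholamine synthesis, was lower. The blood and endothelial markers *PTPRC*, *PECAM1* and *VWF* stayed under 1 CPM on average in every group. *CD68*, the other gene of that list, was at 1 or more CPM on average in control and 24-h SK-N-BE(2)C cells and in every SH-SY5Y group. The 4 genes together summed to at most 7.18 CPM in any library. The 7 mesenchymal markers found summed to 135 to 562 CPM, and the 6 Schwann-like or fibroblast markers to 29.1 to 662 CPM. After longer PB both sums were below all control libraries in IMR-32, the mesenchymal sum was below them in SH-SY5Y, and the Schwann-like or fibroblast sum was above them in SK-N-BE(2)C. Their part in the results was not tested.

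More members were called lower at the longer time than at 24 h in each line (plot of changes by comparison). A gene was called when its Benjamini-Hochberg adjusted p in edgeR's quasi-likelihood test was below 0.05 and its log2 fold change exceeded 0.5 in size. Of the 34 members, 33 passed the low-count filter in every line; *LSM2* did not. After 24 h, 5 of 33 were called lower in SK-N-BE(2)C (10.6% of all genes tested were called lower), 6 in SH-SY5Y (11%) and 5 in IMR-32 (10.5%). After longer PB, SK-N-BE(2)C had 24 (22.3% of all genes), SH-SY5Y 15 (17.3%) and IMR-32 12 (15.5%). From 24 h to the longer time, 2 were lower in SH-SY5Y (6.23%), 3 in IMR-32 (8.86%) and 12 in SK-N-BE(2)C (14.4%). As shares of the 33 members, the longer counts are 72.7%, 36.4% and 45.5%, above the background of each line, and the 24-h counts are 15.2%, 15.2% and 18.2%, nearer to it. The counts from 24 h to 5 d in IMR-32 and SH-SY5Y, at 9.09% and 6.06%, are at the background. Some of the smaller counts rested on single libraries. The 24-h count in SK-N-BE(2)C was 8 without 24-h library 2, and that in IMR-32 was 3 without control library 5 or 24-h library 3 or 4. From 24 h to 5 d, the IMR-32 count was 5 without 24-h library 1 and 1 without 24-h library 2 or 5-d library 2 or 4. The SH-SY5Y count was 1 without 24-h library 3 or 5 and 0 without 24-h library 4 or 5-d library 1 or 2.

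*LSM11* was called higher from 24 h to 5 d in IMR-32 (10.8% of all genes were called higher). *SNRPN* also passed the threshold upwards, at 7 d in SK-N-BE(2)C, at 5 d in IMR-32 and from 24 h to 5 d in IMR-32, but it passed the low-count filter in both lines mainly through treated libraries, so it is described by its values and not counted. None of the other members was called higher in any of the 9 comparisons. The shares of all genes called higher at 24 h were 10.9%, 7.87% and 10.5%, those at the longer time 24.5%, 16.6% and 18.6%, and those from 24 h to the longer time 10.5% in SH-SY5Y and 17.5% in SK-N-BE(2)C.

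The threshold on size decided many of the 24-h counts. On adjusted p alone, the members lower at 24 h numbered 21, 14 and 24, beside 23.0%, 15.6% and 22.8% of all genes lower by that rule. They numbered 27, 21 and 28 at the longer time, beside 35.8%, 25.6% and 32.5%, and 24, 11 and 16 from 24 h to the longer time, beside 30.0%, 17.8% and 21.4%. The median log2 change over the 33 members was -0.35, -0.19 and -0.32 at 24 h, beside medians of 0.02, 0.06 and 0.04 over all genes tested. At the longer time it was -0.60, -0.32 and -0.49, beside 0.01, 0.00 and 0.01. Summed over all 34 members, counts fell from 4283 ± 51.7 CPM in control SK-N-BE(2)C cells to 3462 ± 84.4 at 24 h and 2750.2 ± 183 at 7 d (mean ± SD, n = 5). The sums were 4073 ± 287, 3419.5 ± 217 and 3145 ± 101 CPM in IMR-32, and 4563 ± 96.8, 3685 ± 119 and 3226 ± 290.4 CPM in SH-SY5Y. These are shares of each library, so fewer transcripts per cell and a larger total of other RNA cannot be told apart.

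**Figure D1:**
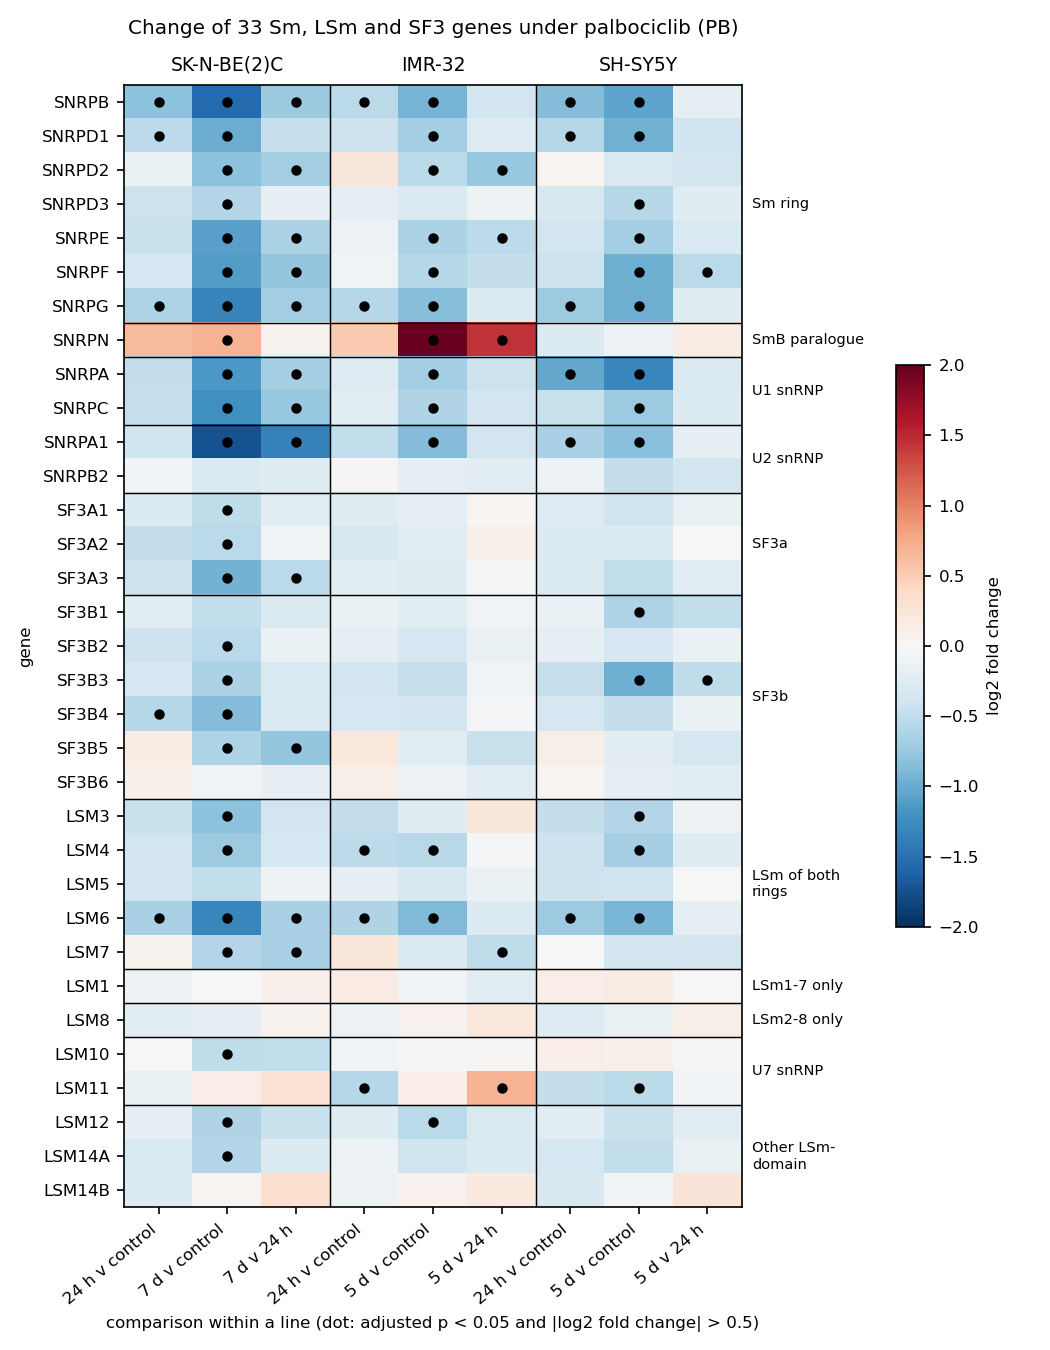
Log2 fold change (color, from -2 to 2) of the 33 tested members in rows, ordered by role, for 9 comparisons in columns, 3 per line. Dots mark values past the threshold, *SNRPN* included: 24, 12 and 15 members are lower at the longer time, and the rows of *LSM1*, *LSM8*, *LSM5*, *LSM14B*, *SF3B6* and *SNRPB2* carry no dot.

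The 10 members called lower at the longer time in all lines were *SNRPB*, *SNRPD1*, *SNRPE*, *SNRPF* and *SNRPG* of the Sm ring, *SNRPA* and *SNRPC* of the U1 snRNP, *SNRPA1* of the U2 snRNP, and *LSM4* and *LSM6*. Of the 12556 genes tested in each line, 6.50% were called lower at the longer time in all lines. Of these 10, *SNRPB*, *SNRPG* and *LSM6* were already called at 24 h in each line (5.81% of genes). At 24 h, 1 other member was called in 2 lines (3.60%) and 5 in 1 line (7.12%). A further 5 members were called lower at the longer time in 2 lines (9.42%), 11 in 1 line (15.8%), and 9 of those 11 in SK-N-BE(2)C alone. The 6 called in no comparison were *LSM1*, *LSM5*, *LSM8*, *LSM14B*, *SF3B6* and *SNRPB2*.

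The window of DNA before the gene start is shown for 4 members that were called lower in at least 1 line, since their windows differ in 1 short motif. RefSeq start windows (GRCh38.p14) were found for 29 of the 34 members, some with several starts, and the 250 bases before each start were searched on both strands. The motif CCGGAAGT, an exact spelling of an ETS-family site, was in windows of 9 of 29 members (31.0%): *SF3A1*, *SF3A2*, *SF3A3*, *SF3B2*, *SF3B4*, *SF3B6*, *SNRPA1*, *SNRPB* and *SNRPE*. It was in windows of 7.43% of the 11931 genes tested in any line that had a window. Capitals mark the motif, on the reverse strand in *SNRPA1*. Each sequence reads 5′ to 3′ on the gene's strand.
SNRPB, chr20:2470790-2471039, minus strand: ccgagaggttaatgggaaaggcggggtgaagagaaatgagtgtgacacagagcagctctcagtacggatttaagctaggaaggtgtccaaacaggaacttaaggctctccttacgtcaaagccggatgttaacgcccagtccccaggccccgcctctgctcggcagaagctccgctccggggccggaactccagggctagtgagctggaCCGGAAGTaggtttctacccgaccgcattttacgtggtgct
SNRPA1, chr15:101295249-101295498, minus strand: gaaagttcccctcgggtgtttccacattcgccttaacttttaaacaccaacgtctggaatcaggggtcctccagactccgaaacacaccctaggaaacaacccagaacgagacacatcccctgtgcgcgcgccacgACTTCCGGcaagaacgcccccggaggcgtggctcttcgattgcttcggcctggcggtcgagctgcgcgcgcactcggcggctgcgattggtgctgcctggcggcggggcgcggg
SF3B4, chr1:149927804-149928053, minus strand: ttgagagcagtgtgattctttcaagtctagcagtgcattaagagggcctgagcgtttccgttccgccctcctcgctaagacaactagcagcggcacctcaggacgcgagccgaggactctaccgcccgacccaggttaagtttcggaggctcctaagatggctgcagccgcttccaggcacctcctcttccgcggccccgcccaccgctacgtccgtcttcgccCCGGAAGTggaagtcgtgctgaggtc
SNRPC, chr6:34757255-34757504, plus strand: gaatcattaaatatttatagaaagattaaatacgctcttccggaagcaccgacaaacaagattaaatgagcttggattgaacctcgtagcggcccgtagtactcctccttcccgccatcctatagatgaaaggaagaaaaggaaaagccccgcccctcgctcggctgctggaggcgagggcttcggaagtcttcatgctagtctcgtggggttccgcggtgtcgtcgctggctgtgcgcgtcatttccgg
*SNRPB*, *SNRPA1* and *SF3B4* each hold 1 copy and *SNRPC*, which was called lower in all lines at the longer time, holds no exact copy. The *SNRPC* window does hold CCGGAAGC, which differs from the motif in the last base. Near spellings were not counted in any window. *SF3B6* also holds the motif and was never called. The MYC/MAX E-box CACGTG was in a window of 1 member, *SF3B1* (3.45% of members, against windows of 1316 of the 11931 tested genes), which also was the 1 member with an E2F motif, spelled TTTGGCGC or TTTCGCGC (1.93% of tested genes). TTTGAA, the core of the cell cycle homology element, was in windows of *LSM5* and *SNRPD2* (6.90% against 12.1%), and the NRF1 core GCATGCGC was in those of *LSM7*, *SF3A2* and *SNRPN* (10.3% against 5.36%). None of these motifs contains another. A window of each of *LSM5*, *SF3B2*, *SNRPA*, *SNRPE* and *SNRPG* lay mostly inside a GENCODE transcript of the same gene rather than before it. These include the CCGGAAGT windows of *SF3B2* and *SNRPE* and the TTTGAA window of *LSM5*, which are counted in the shares above. Windows of the other tested genes were not examined in this way. A letter match is not evidence of binding, and no binding data were used.

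*SNRPB* (chr20:2442280-2451499, minus strand, in the hg19/GRCh37 build used for the counts) encodes B and B′, and had the largest mean change of the 10. Levels are given as CPM of all counts of a library, in the order of libraries 1 to 5, while fold changes also use TMM factors. SK-N-BE(2)C cells had *SNRPB* at 273, 266, 239, 266 and 251 CPM in the control libraries, at 170.4, 159.97, 133, 144 and 145 after 24 h, and at 124, 60.03, 70.4, 103 and 94.6 after 7 d. In IMR-32 the values were 333, 298, 315, 318 and 365 CPM in control, 198, 284, 184, 182 and 229 at 24 h and 186, 157, 177, 165 and 175 at 5 d. In SH-SY5Y they were 349, 346, 392, 369 and 351, then 197, 191, 205, 217 and 193 and 155, 152, 203, 177 and 223 CPM. No treated library reached any control library of its line, although after TMM scaling the 24-h and control libraries of IMR-32 overlapped, and in SK-N-BE(2)C the 7-d libraries were also all below the 24-h ones. The log2 changes at 24 h were -0.82 ± 0.15 (SE; adjusted p = 0.00045), -0.55 ± 0.12 (adjusted p = 0.0027) and -0.86 ± 0.09 (adjusted p = 6.3e-07). At the longer time they were -1.56 ± 0.16 (3.1e-07), -0.93 ± 0.12 (2.1e-05) and -1.06 ± 0.09 (3e-08). The 24-h call in IMR-32 was lost, at -0.49 to -0.50, without control library 5, without 24-h library 3 or 4, or without the replicate 4 libraries. In SK-N-BE(2)C the lowest 7-d libraries, 2 and 3, also had the lowest mean log2 level of the 8 E2F-driven genes, 3.75 and 3.50 against 4.79 to 5.37 in the other 7-d libraries. At 5 d in SH-SY5Y, libraries 1 and 2 were lowest in *SNRPB* and in that mean, at 2.97 and 3.96 against 4.61 to 5.23, and in IMR-32 library 2 was lowest in both. The part of cycling cells in this was not tested.

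*SNRPG*, the smallest Sm protein, and *SNRPF* were also called lower at the longer time in all lines. *SNRPG* in SK-N-BE(2)C was at 41.2, 39.5, 36.3, 31.2 and 35.2 CPM in control, 28.02, 25.5, 21.7, 21.6 and 24.8 at 24 h and 21.5, 11.5, 10.5, 17.1 and 15.6 at 7 d. Its IMR-32 values were 44.2, 43.5, 49.05, 47.6 and 53.6, 27.5, 41.4, 31.8, 27.03 and 27.4 and 24.8, 26.6, 28.1, 25.6 and 28.3 CPM in the same order. Its SH-SY5Y values were 55.6, 58.4, 68.97, 58.9 and 48.2, 33.05, 33.1, 38.4, 42.1 and 29.4 and 26.4, 24.7, 32.5, 31.3 and 39.9 CPM. All treated libraries lay below the controls of their line; 24-h library 2 of IMR-32 came closest and overlapped after TMM scaling. The change at 24 h was -0.62 ± 0.16, -0.57 ± 0.12 and -0.73 ± 0.13 (adjusted p = 0.0042, 0.0022 and 0.00016). At the longer time it was -1.32 ± 0.16, -0.85 ± 0.12 and -0.97 ± 0.13 (adjusted p = 2.2e-06, 5.1e-05 and 4.4e-06). The IMR-32 24-h call was lost at -0.47 without the replicate 5 libraries.

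*SNRPF* in SK-N-BE(2)C read 75.6, 69.5, 69.8, 71.5 and 70.6 CPM in control, 59.7, 59.9, 54.8, 55.2 and 56.5 at 24 h and 40.8, 24.1, 29.5, 39.5 and 35.2 at 7 d. IMR-32 gave 62.7, 60.1, 69.8, 62.4 and 75.6 in control, 52.9, 74.7, 57.8, 55.6 and 59.4 at 24 h and 42.8, 39.7, 51.5, 42.2 and 48.6 at 5 d, and here control and 24-h libraries overlapped. SH-SY5Y gave 55.8, 47.8, 58.1, 50.2 and 49.2, 35.3, 35.2, 42.1, 44.7 and 36.9 and 21.4, 22.4, 31.4, 24.96 and 38.5 CPM. All 24-h libraries were below the controls in SH-SY5Y and SK-N-BE(2)C. The 24-h changes, -0.35 ± 0.11, -0.09 ± 0.11 and -0.44 ± 0.14 (adjusted p = 0.014, 0.58 and 0.013), were under the size limit. It was called at the longer time in all lines, with -1.12 ± 0.11 (adjusted p = 1.6e-07), -0.57 ± 0.11 (0.00079) and -0.98 ± 0.14 (8.3e-06). It fell from 24 h to the longer time by 0.54 in SH-SY5Y (adjusted p = 0.0047) and by 0.77 in SK-N-BE(2)C (2.1e-05). The IMR-32 value over this interval, -0.48 ± 0.11, was under the size limit and was called in 7 of the 20 fits that left out a library or a replicate number, and the SH-SY5Y 24-h change was called without the replicate 4 libraries (-0.53). The SH-SY5Y call was lost, at -0.42 to -0.49, without 24-h library 3 or 4, without 5-d library 1 or 2, and without the replicate 1 or replicate 4 libraries.

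**Figure D2:**
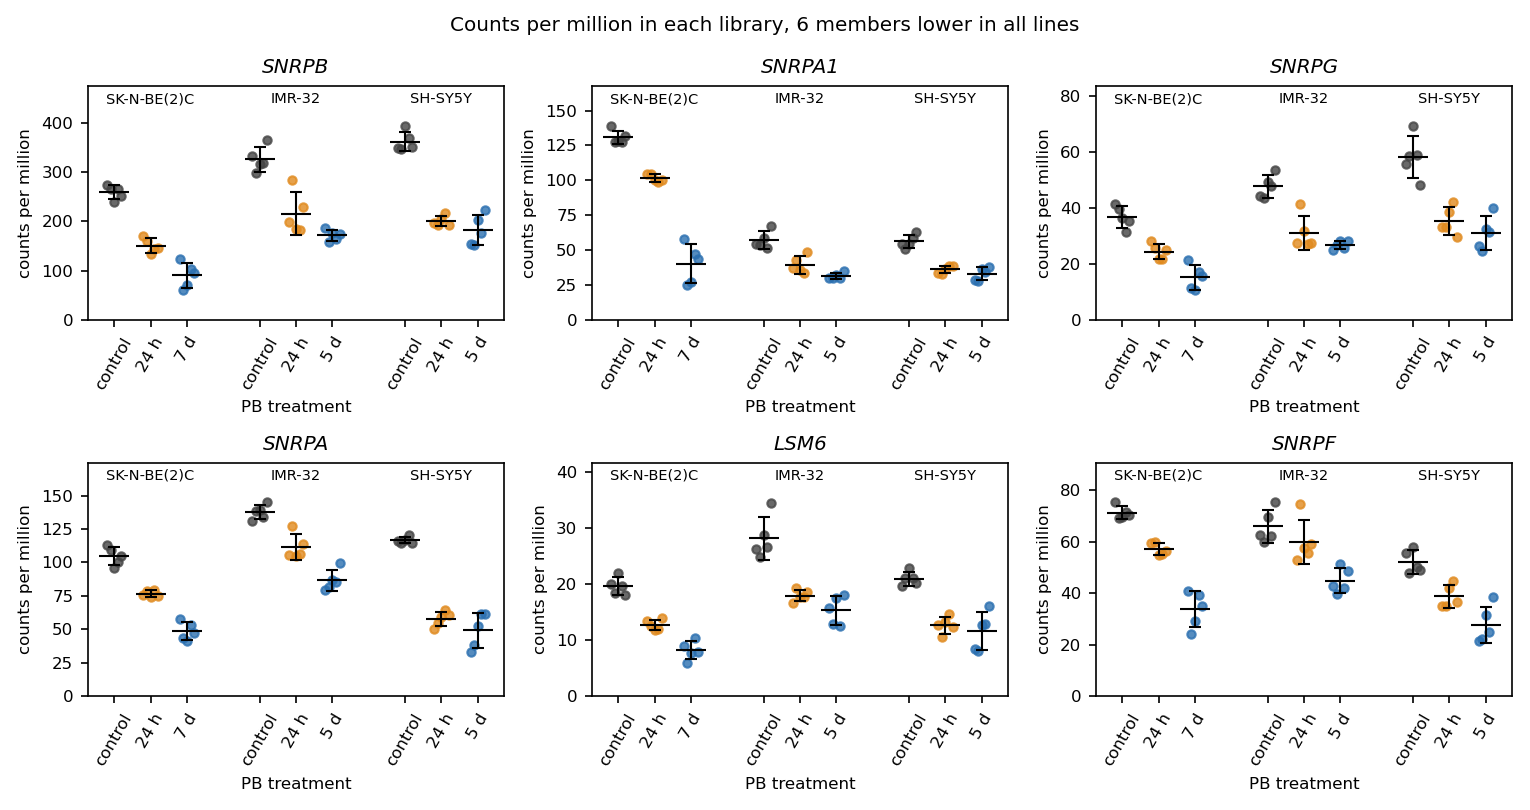
Counts-per-million values (CPM, linear axis from 0) in each library for the 6 members with the largest mean change among the 10 called lower at the longer time in all lines, 5 points per group, with mean and SD as black bars. *SNRPB* averages 259 CPM in control and 90.4 CPM at 7 d for SK-N-BE(2)C, 361 and 182 CPM at 5 d for SH-SY5Y, and 326 and 172 CPM for IMR-32.

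Of the other ring members, *SNRPD1* fell from 81.4 ± 1.96 to 57.9 ± 1.76 and 42.3 ± 7.08 CPM (mean ± SD) in SK-N-BE(2)C, and was called at 24 h there and in SH-SY5Y (-0.52 ± 0.09 and -0.57 ± 0.11). *SNRPE* was not called at 24 h in any line, then was called at the longer time with -1.08 ± 0.06, -0.64 ± 0.11 and -0.68 ± 0.13 (adjusted p = 1.7e-10, 0.0003 and 0.00017). Its further fall from 24 h to 5 d in IMR-32 (-0.52 ± 0.11) was not called without 24-h library 2 (-0.39), without 5-d library 2 or 4 or with library size alone. *SNRPD3* was called only at the longer time, in SK-N-BE(2)C (-0.59 ± 0.08) and SH-SY5Y (-0.57 ± 0.06), and stood at -0.29 ± 0.09 in IMR-32 without being called. Another annotated gene on the same strand shares 14% of the exonic length of *SNRPD3*, so its counts could be split.

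*SNRPD2* is described in full because of its values, which were known when it was chosen. Its levels in SK-N-BE(2)C were 152, 139, 156, 155 and 153 CPM in control, 138, 137, 139, 142 and 145 at 24 h and 95.5, 66.997, 84.03, 96.1 and 94.8 at 7 d. In IMR-32 they were 224, 187, 209, 211 and 209.7, 200.04, 314, 207, 217 and 232 and 149.9, 126, 151, 136 and 159, with 24-h library 2 far above the rest. SH-SY5Y cells had 199.7, 217, 258, 219 and 214 in control, 219.6, 212, 248, 251 and 232 at 24 h and 156, 163, 211, 183 and 225 at 5 d. Control and 24-h libraries overlapped in each line, while the longer libraries were all below the controls in IMR-32 and SK-N-BE(2)C and overlapped with them in SH-SY5Y. The 24-h changes were -0.14 ± 0.08, 0.22 ± 0.12 and 0.06 ± 0.10, all uncalled (adjusted p = 0.18, 0.18 and 0.64). From 24 h to the longer time it then fell by 0.76 ± 0.12 in IMR-32 (adjusted p = 0.00028) and 0.69 ± 0.08 in SK-N-BE(2)C (2.9e-06). The SH-SY5Y value, -0.37 ± 0.10, was under the size limit. Without 24-h library 2 the IMR-32 change from 24 h was -0.61.

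*LSM7* and *SF3B5*, of the LSm rings and SF3b, had 24-h changes at or above 0 in each line and lower values afterwards. Their 24-h changes lay between 0.00 ± 0.11 (*LSM7* in SH-SY5Y) and 0.23 ± 0.11 (*LSM7* in IMR-32), none called. From 24 h to 7 d in SK-N-BE(2)C, *LSM7* fell by 0.65 (adjusted p = 1.6e-06) and *SF3B5* by 0.77 (2.8e-06). In IMR-32, *LSM7* fell by 0.52 (0.003), a call that was lost without 24-h library 2 (-0.41) or 5, without 5-d library 2 or 4, with RLE size factors and with library size alone, and *SF3B5* was at -0.44 ± 0.11 without a call. In SH-SY5Y both were under the size limit (-0.38 ± 0.11 and -0.33 ± 0.07).

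Both U1-specific members were called lower at the longer time in all lines. *SNRPA* encodes the A protein of U1, which binds a stem-loop of U1 RNA. Its SK-N-BE(2)C libraries read 113, 109, 96.01, 100.4 and 105 CPM in control, 75.97, 78.9, 74.1, 79.6 and 74.9 at 24 h and 57.5, 43.8, 41.2, 53.3 and 47.6 at 7 d. In IMR-32 they read 131, 138, 139, 134 and 145, 106, 127, 105, 106 and 114 and 79.2, 81.5, 87.1, 85.2 and 99.8. In SH-SY5Y they read 116, 115, 117, 120.4 and 115, 50.6, 55.1, 59.1, 64.5 and 60.6 and 33.03, 38.6, 52.3, 61.7 and 61.3. Every treated library was below every control of its line, in IMR-32 at 24 h by CPM alone and not after TMM scaling. The 24-h drop was largest in SH-SY5Y, with -1.02 ± 0.14 (adjusted p = 2.1e-05) against -0.26 ± 0.08 in IMR-32 and -0.48 ± 0.08 in SK-N-BE(2)C, both below the size limit. The SK-N-BE(2)C change was called, at -0.50 to -0.51, without control library 3, without 24-h library 2 or without the replicate 4 libraries. At the longer time the changes were -1.15 ± 0.08, -0.68 ± 0.08 and -1.31 ± 0.14 (adjusted p = 4.8e-09, 1.1e-05 and 8.6e-07). *SNRPC*, which encodes the C protein of U1, a contact of the 5′ splice site, fell from 93.9 ± 5.85 to 41.3 ± 7.03 CPM over 7 d in SK-N-BE(2)C. SH-SY5Y control libraries averaged 94.7 ± 8.98 CPM and 5-d libraries 60.2 ± 6.91, and those of IMR-32 99.1 ± 10.9 and 65.7 ± 1.89.

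*SNRPA1* encodes the A′ protein of U2 and *SNRPB2* the B″ protein, which bind U2 RNA as a pair. *SNRPA1* in SK-N-BE(2)C was at 139, 128, 128, 127 and 132 CPM in control, 104, 105, 99.9, 98.5 and 100 at 24 h and 58.2, 24.7, 27.4, 47.3 and 43.3 at 7 d. IMR-32 libraries held 54.6, 53.8, 58.6, 51.6 and 67.6, 36.96, 42.7, 35.5, 33.4 and 48.7 and 30.2, 29.8, 32.04, 30.2 and 35.1 CPM. SH-SY5Y libraries held 54.5, 50.8, 54.6, 58.5 and 63.2, 33.8, 33.2, 36.8, 38.8 and 38.3 and 28.7, 27.6, 36.5, 34.4 and 37.9 CPM. None of the treated libraries overlapped with the controls, and the 7-d libraries of SK-N-BE(2)C spread widest, again with 2 and 3 lowest. Its log2 change reached -1.75 ± 0.18 at 7 d in SK-N-BE(2)C (adjusted p = 4.7e-07), beside -0.84 ± 0.09 in SH-SY5Y (4.4e-07) and -0.87 ± 0.11 in IMR-32 (1.7e-05). Most of the SK-N-BE(2)C drop came after 24 h, where the change was -0.40 ± 0.17 (adjusted p = 0.073) and the further change -1.35 ± 0.18 (1.4e-05). In SH-SY5Y the values were -0.65 ± 0.09 at 24 h (1.6e-05) and -0.19 ± 0.10 after it (0.11). *SNRPB2* was called in no comparison, and its changes at the longer time were -0.29 ± 0.07, -0.19 ± 0.10 and -0.47 ± 0.07 (adjusted p = 0.002, 0.12 and 1.5e-05). In SH-SY5Y and SK-N-BE(2)C all its longer-time libraries were below the controls, so there it missed the size limit alone. A gap between the pair of genes was not tested.

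All 3 SF3a genes were called lower at 7 d in SK-N-BE(2)C and in neither of the other lines. *SF3A3* fell most, from 95.3 ± 3.69 to 50.7 ± 5.79 CPM, a log2 change of -0.95 ± 0.07 (adjusted p = 1.2e-08), of which -0.54 ± 0.07 came after 24 h, a call lost without 7-d library 2 or 3. *SF3A1* (-0.51 ± 0.05) and *SF3A2* (-0.53 ± 0.07) were close to the size limit, and *SF3A1* was no longer called with RLE size factors, with library size alone or without control or 7-d library 1. The *SF3A2* call was lost with library size alone and without the replicate 1 or replicate 5 libraries. In IMR-32 and SH-SY5Y the 3 genes lay between -0.19 ± 0.09 (*SF3A1*, IMR-32) and -0.49 ± 0.07 (*SF3A3*, SH-SY5Y) at 5 d, the last with an adjusted p of 1.1e-05. With the replicate number as a block, *SF3A3* passed the limit in SH-SY5Y (-0.50, adjusted p = 1e-06).

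The SF3b genes differed among themselves. *SF3B4*, a subunit that contacts the intron upstream of the branch point, fell at 24 h (-0.56 ± 0.06, adjusted p = 1.7e-06) and 7 d (-0.86 ± 0.06, 4.3e-09) in SK-N-BE(2)C, and was at -0.38 ± 0.12 and -0.48 ± 0.06 at 5 d in IMR-32 and SH-SY5Y. *SF3B1*, the large scaffold that clamps the branch point and is mutated in several blood cancers, was called in SH-SY5Y alone, from 505 ± 28.9 to 345 ± 16.8 CPM (-0.62 ± 0.06, adjusted p = 3.9e-08). Its value in SK-N-BE(2)C was -0.50 ± 0.06, just under the limit. *SF3B3* was lower in SK-N-BE(2)C (-0.63 ± 0.06) and SH-SY5Y (-0.98 ± 0.09, from 419 ± 15.03 to 223 ± 32.3 CPM), and with *SNRPF* was the other member called from 24 h to 5 d in SH-SY5Y (-0.51 ± 0.09), a call lost, at -0.41 to -0.49, without 24-h library 4 or 5, without 5-d library 1 or 2, without the replicate 1 or replicate 4 libraries, with library size alone and with no filter. *SF3B2* was called at 7 d in SK-N-BE(2)C (-0.55 ± 0.04), and *SF3B6*, whose protein sits beside the branch-point adenosine, lay between -0.23 ± 0.14 and 0.11 ± 0.14 in every comparison.

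Of the LSm proteins common to both rings, *LSM6* and *LSM4* were called lower at the longer time in all lines. *LSM6* in SK-N-BE(2)C stood at 20.04, 18.4, 22.01, 19.8 and 18.005 CPM in control, 13.4, 12.6, 11.8, 12.1 and 13.97 at 24 h and 8.97, 6.05, 7.73, 10.4 and 7.93 at 7 d. The IMR-32 libraries had 26.3, 24.8, 28.7, 26.6 and 34.5, 16.6, 19.3, 17.7, 17.7 and 18.5 and 15.8, 12.97, 17.5, 12.5 and 18.1 CPM. The SH-SY5Y libraries had 19.7, 21.2, 22.9, 21.1 and 20.1, 12.7, 10.6, 13.2, 14.7 and 12.3 and 8.40, 8.15, 12.7, 12.9 and 16.2 CPM. Treated and control libraries did not overlap in any line, and in SH-SY5Y the 5-d libraries were spread from below to above the 24-h ones. The 24-h changes were -0.65 ± 0.12, -0.60 ± 0.12 and -0.73 ± 0.15 (adjusted p = 0.00022, 0.0017 and 0.00065), and the longer ones -1.30 ± 0.12, -0.88 ± 0.13 and -0.91 ± 0.15 (5.9e-08, 4.4e-05 and 4.5e-05). *LSM4* was called at 24 h in IMR-32 alone (-0.53 ± 0.11), a call lost without control library 5 or 24-h library 1, 3 or 4, and changed by -0.73 ± 0.09, -0.55 ± 0.11 and -0.66 ± 0.10 at the longer time. *LSM3* was called in SK-N-BE(2)C (-0.82 ± 0.07) and SH-SY5Y (-0.58 ± 0.10), and *LSM5* in no line, with -0.49 ± 0.06 as its largest change.

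The subunits that tell the rings apart were never called. *LSM1* belongs to the cytoplasmic ring only; its values were 42.1, 43.97, 40.7, 42.7 and 45.1 CPM in control, 38.5, 43.1, 41.9, 39.2 and 40.7 at 24 h and 49.4, 45.9, 38.04, 44.3 and 41.3 at 7 d in SK-N-BE(2)C. They were 27.2, 28.1, 27.3, 27.7 and 31.6, 29.4, 35.6, 28.9, 26.6 and 32.8 and 27.2, 28.4, 27.6, 26.9 and 26.997 in IMR-32. They were 39.3, 41.9, 42.2, 36.1 and 38.2, 45.6, 42.9, 45.03, 43.9 and 41.8 and 45.6, 45.03, 50.7, 40.6 and 46.4 in SH-SY5Y. Control and treated libraries overlapped in each comparison, and the log2 changes lay between -0.22 ± 0.09 and 0.16 ± 0.09. Genes on the opposite strand cover 38.0% of its exonic length; the library kit keeps strand, but no source used here states how the counting treated strand.

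*LSM8*, the nuclear counterpart, was at 35.4, 33.7, 45.9, 39.5 and 43.5 CPM in control SK-N-BE(2)C libraries, 30.02, 29.8, 36.97, 37.98 and 37.6 at 24 h and 28.7, 28.2, 41.2, 43.6 and 40.9 at 7 d. In IMR-32 it read 34.8, 38.6, 36.4, 34.6 and 40.1, 34.6, 33.9, 32.9, 32.6 and 30.8 and 33.9, 43.9, 39.9, 40.8 and 39.9. In SH-SY5Y it read 49.6, 57.2, 55.7, 47.5 and 56.8, 45.8, 44.3, 45.9, 44.4 and 43.5 and 45.9, 51.4, 51.03, 51.05 and 52.9. In each SK-N-BE(2)C group, libraries 1 and 2 were below libraries 3 to 5. The 24-h libraries of SH-SY5Y were all below its controls, a change of -0.26 ± 0.06 (adjusted p = 0.0021) that stayed under the size limit. Between same-numbered libraries *LSM8* was lower at 24 h than in control in 5 of 5 pairs in each line by CPM, and in 4 of 5 in IMR-32 with TMM factors.

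The log2 ratio of *LSM8* to *LSM1* counts within a library, tested with no limit on size, fell at 24 h from 0.38 ± 0.06 to 0.11 ± 0.18 in IMR-32 (SD, n = 5; exact two-sided permutation p = 0.0079, 0.014 adjusted over the 18 ratio comparisons) and from 0.43 ± 0.09 to 0.03 ± 0.02 in SH-SY5Y (the same exact p). Without 24-h libraries 2 and 5 and the other replicate 5 libraries, which stand apart, the IMR-32 fall was from 0.39 ± 0.06 to 0.24 ± 0.05 (4 against 3 libraries, exact p = 0.057, adjusted 0.094). In SH-SY5Y it was still lower at 5 d, at 0.14 ± 0.14 (exact p = 0.0079, adjusted 0.014). In IMR-32 it stood at 0.53 ± 0.12 at 5 d, above the 24-h libraries (exact p = 0.0079, adjusted 0.014, and 0.094 adjusted without those 4 libraries) and not called against control (exact p = 0.056, adjusted 0.077). In SK-N-BE(2)C the means were -0.13 ± 0.21, -0.25 ± 0.20 and -0.28 ± 0.42, and none of the differences passed (exact p = 0.38 to 0.87). An exact test of 5 against 5 libraries cannot go below 0.0079, and a test of 4 against 3 libraries cannot go below 0.029. The 18 comparisons include those of *SNRPN* to *SNRPB*, which are not read as tests below. Their low p-values make the adjusted values here smaller than an adjustment over *LSM8*/*LSM1* alone would. That adjustment was not made.

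**Figure D3:**
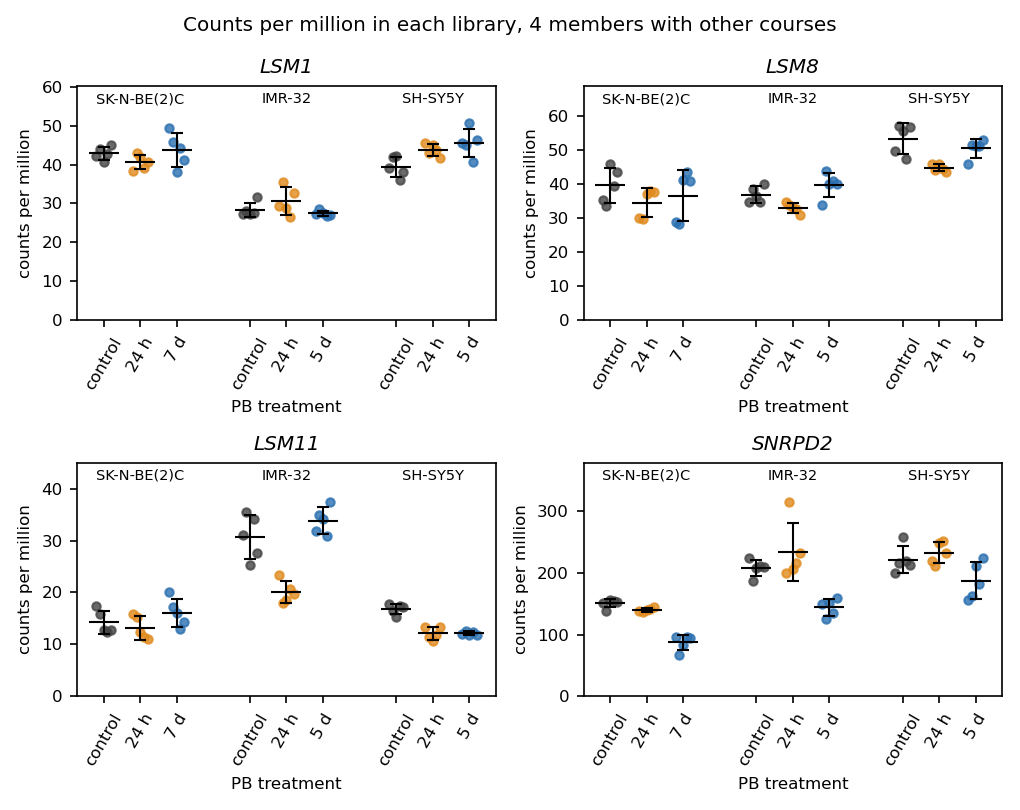
Counts-per-million values (CPM, linear axis from 0) in each library for *LSM1*, *LSM8*, *LSM11* and *SNRPD2*, 5 points per group with mean and SD. *LSM11* in IMR-32 goes from 30.7 to 20.05 and back to 33.8 CPM on average, and *SNRPD2* in IMR-32 from 208 to 234 and then 144 CPM.

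*LSM10* and *LSM11* are the U7-specific pair. *LSM11* in IMR-32 was at 31.1, 35.4, 25.3, 34.1 and 27.5 CPM in control, 23.4, 17.9, 18.6, 20.7 and 19.7 at 24 h and 31.8, 34.9, 34.05, 30.9 and 37.5 at 5 d. All 24-h libraries were below both other groups: it fell by 0.57 ± 0.10 at 24 h (adjusted p = 0.00042), rose by 0.70 ± 0.10 from there to 5 d (9.2e-05) and was at 0.13 ± 0.10 against control (0.28). Without the replicate 2 libraries the 24-h change was -0.49 and not called. In SH-SY5Y it was at 17.7, 16.5, 15.3, 17.3 and 17.2, 13.4, 11.4, 10.7, 11.9 and 13.4 and 12.1, 12.6, 11.8, 12.5 and 11.8 CPM, lower at both times, with -0.48 ± 0.08 at 24 h (below the size limit, and called without 1 of several libraries) and -0.54 ± 0.08 at 5 d (adjusted p = 1e-05). The 5-d value was -0.47, under the limit, with library size alone. In SK-N-BE(2)C it was at 17.4, 15.9, 12.8, 12.3 and 12.9, 15.8, 15.3, 12.4, 11.4 and 11.01 and 20.02, 17.1, 16.1, 12.99 and 14.3 CPM, groups that overlapped throughout, with libraries 1 and 2 of each above libraries 3 to 5. Between same-numbered SK-N-BE(2)C libraries it was lower at 24 h than in control in 5 of 5, and higher at 7 d than in control in 5 of 5, by amounts under the size limit also with the replicate number as a block. *LSM10* was called once, at 7 d in SK-N-BE(2)C (-0.50 ± 0.09), a call lost with RLE size factors, library size alone and DESeq2, without control library 2 or 4 and without 7-d library 2 or 3, and stood at -0.04 ± 0.12 and 0.10 ± 0.08 at 5 d in the other lines.

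Among the other LSm-domain proteins, *LSM14A* and *LSM14B* are paralogues found in cytoplasmic mRNP granules. *LSM14A* fell at 7 d in SK-N-BE(2)C, from 192 ± 3.10 to 132 ± 5.14 CPM (-0.59 ± 0.04), and was at -0.39 ± 0.07 and -0.49 ± 0.05 in IMR-32 and SH-SY5Y. *LSM14B* was never called. Its 24-h libraries were all below the controls in SH-SY5Y and SK-N-BE(2)C, with changes of -0.32 ± 0.05 and -0.27 ± 0.05 (adjusted p = 3.6e-05 and 0.00038), and its longer-time libraries were all above the 24-h ones there, by 0.26 ± 0.05 and 0.32 ± 0.05 (adjusted p = 0.0004 and 5.2e-05). In IMR-32 all groups overlapped. Against control its changes at the longer time were 0.05 ± 0.05, 0.09 ± 0.07 and -0.05 ± 0.05. *LSM12* was called lower at the longer time in IMR-32 (-0.55 ± 0.13) and SK-N-BE(2)C (-0.60 ± 0.07), the first being lost without control library 5 (-0.42) or the replicate 5 libraries.

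*SNRPN*, the paralogue of *SNRPB* that is known for its expression in neurons and for its imprinted locus, was read at a very low level. In IMR-32 it had 0.265, 0.451, 0.163, 0.209 and 0.402 CPM in control, 0.244, 0.751, 0.198, 0.434 and 0.438 at 24 h and 1.22, 1.14, 0.745, 1.70 and 1.12 at 5 d. The SK-N-BE(2)C values were 0.234, 0.746, 0.449, 0.446 and 0.270, 0.549, 0.865, 0.543, 0.613 and 0.825 and 0.568, 0.756, 0.883, 0.681 and 0.716. In SH-SY5Y they were 1.14, 1.05, 1.30, 0.859 and 0.793, 0.949, 0.641, 1.07, 0.820 and 0.838 and 0.896, 1.39, 0.821, 0.672 and 1.21. The 5-d libraries of IMR-32 held 13 to 31 reads against 3 to 9 in control and did not overlap with them. In IMR-32 the gene passed the low-count limit in 5 of 5 libraries at 5 d, in 1 of 5 at 24 h and in 0 of 5 in control. In SK-N-BE(2)C it passed in 5 of 5 at 7 d, in 4 of 5 at 24 h and in 1 of 5 in control. It thus entered the test in both lines through the groups in which it is high, and its log2 changes against control there, 1.97 ± 0.37 at 5 d and 0.69 ± 0.30 at 7 d, are given as values only. The SK-N-BE(2)C value fell short of the threshold in 17 of the 20 fits that left out a library or a replicate number. Other genes on the same strand share 43.9% of its exonic length, and *SNURF*, which shares its transcript, held 31 reads in all 45 libraries against 630 for *SNRPN*, so reads may have been lost to ambiguity in the counting. How many was not tested.

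The log2 ratio of *SNRPN* to *SNRPB* counts is given as a description only, for the same reason. Its permutation tests are not read, although they entered the adjustment over the 18 ratio comparisons. From control to the longer time it moved from -8.44 ± 0.26 to -7.50 ± 0.50 in SH-SY5Y, from -9.26 ± 0.64 to -6.88 ± 0.61 in SK-N-BE(2)C and from -10.06 ± 0.56 to -7.19 ± 0.45 in IMR-32 (SD, n = 5). It includes the fall of *SNRPB*, and in SH-SY5Y the change of *SNRPN* itself was -0.27 ± 0.24 at 24 h and -0.12 ± 0.24 at 5 d.

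*LSM2* held 4 counts in all 45 libraries and was tested in no line. It lies in the major histocompatibility complex region of chromosome 6 (chr6:31765173-31774743), and of 21 protein-coding genes of the counts within 200 kb of it, 13 had fewer than 100 counts in all libraries, against a median of 20457 over the genes tested. Its RNA level cannot be read from these counts.

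The size of the change differed between lines for some members (plot of line differences). At 24 h, a test of the difference of log2 changes in 1 fit of all 45 libraries called 0 of 33 members between IMR-32 and SK-N-BE(2)C (4.49% of all genes) and 0 between SH-SY5Y and SK-N-BE(2)C (2.04%). A count of 0 past this threshold does not show that the responses were equal. DESeq2, RLE size factors and the replicate block each called 1 member in the latter, *SNRPA*. Between SH-SY5Y and IMR-32, 1 was called (3.07%), *SNRPA*, whose 24-h change differed by -0.73 ± 0.15 (SH-SY5Y minus IMR-32) (adjusted p = 0.0026).

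At the longer time, 6 members besides *SNRPN* were called between IMR-32 and SK-N-BE(2)C (23.9% of all genes), all with the smaller drop in IMR-32: *SNRPB*, *SNRPF*, *SNRPC*, *SNRPA1*, *SF3A3* and *LSM3*. Of these, *SNRPA1* differed by 0.84 ± 0.19 (adjusted p = 0.00074) and *SF3A3* by 0.68 ± 0.12 (1.4e-05). Between SH-SY5Y and SK-N-BE(2)C, 6 were called (21.2%). The change was more positive in SH-SY5Y for 5 (*SNRPB*, *SNRPD2*, *SNRPC*, *SNRPA1* and *LSM10*), and more negative for *LSM11*, by -0.64 ± 0.16 (0.0021). Between SH-SY5Y and IMR-32, 2 besides *SNRPN* were called (20.8%), with differences of -0.57 ± 0.15 for *SNRPA* and -0.61 ± 0.16 for *LSM11*, SH-SY5Y minus IMR-32. The *SNRPN* values, given without a test because of the filter, were 1.25 ± 0.44 for IMR-32 minus SK-N-BE(2)C and -2.03 ± 0.41 for SH-SY5Y minus IMR-32. The *SNRPA* difference was lost at -0.46 without the replicate 1 libraries. As shares of the 32 members other than *SNRPN* these are 18.8%, 18.8% and 6.25%, below the shares of all genes. The *SNRPB* difference of SK-N-BE(2)C from IMR-32 was lost without the replicate 2 or replicate 3 libraries, and its difference from SH-SY5Y without those or the replicate 4 or replicate 5 libraries, with RLE size factors and with DESeq2. The *SNRPF* difference was lost, at 0.44 and 0.45, without the replicate 2 or replicate 3 libraries. The SK-N-BE(2)C libraries were taken at 7 d and those of the other lines at 5 d, so differences from SK-N-BE(2)C cannot be told apart from time.

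**Figure D4:**
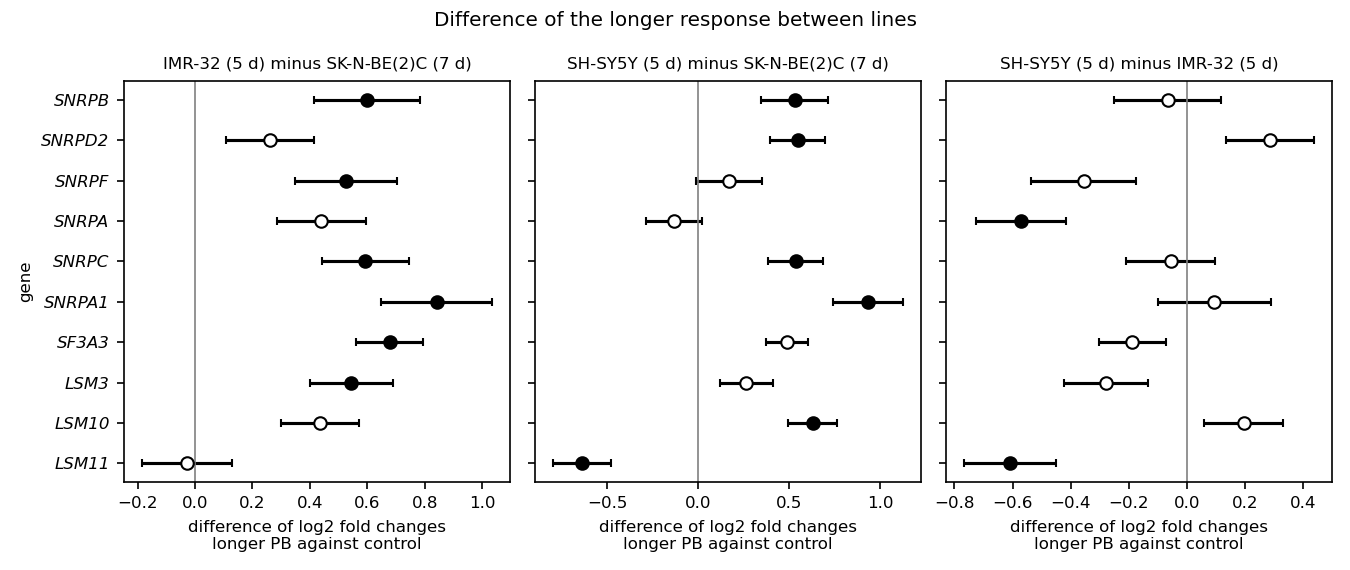
Difference between lines in the log2 fold change of longer PB against control (x axis, point with SE) for the 10 members other than *SNRPN* called in at least 1 test of a line difference. Filled points are called, and *SNRPA1* is 0.94 above SK-N-BE(2)C in SH-SY5Y and 0.84 above it in IMR-32.

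From 24 h to 5 d, 8 of 8 of the E2F-driven genes rose in IMR-32 (median log2 change 2.44) and 7 of 8 in SH-SY5Y (1.36). Over the same interval the median of the 33 members was -0.22 and -0.21, and *LSM11* in IMR-32 was called higher. In SK-N-BE(2)C from 24 h to 7 d, none of the 8 E2F-driven genes was called (median 0.22), and 12 members were lower. The E2F-driven genes were still lower than in control at the longer time, 8, 7 and 8 of 8.

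Genes that work beside the members, listed by function, changed in part. In the SMN complex and methylosome list (14 genes), 1 was called lower at 24 h in SH-SY5Y and 0 in the other lines, and 7, 3 and 4 were lower at the longer time. *GEMIN5*, which recognizes snRNAs for the SMN complex, was among them in each line (-1.07 ± 0.10, -0.56 ± 0.17 and -0.66 ± 0.08), as was *COPRS*, a partner of PRMT5. *SMN1* and *SMN2* are near-identical copies, so their separate counts are uncertain. In that list *GEMIN8* was the 1 gene higher at 7 d in SK-N-BE(2)C. In the list for the snRNA cap, export and import (13 genes), 1, 0 and 1 were lower at 24 h, rising to 6, 1 and 5 at the longer time, and *SNAPC4*, a subunit of the snRNA promoter-binding complex, was higher by then in IMR-32 and SK-N-BE(2)C.

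A list of 19 tested U1 and U2 proteins lay outside the naming rule except for the member *SF3B6*, which was called in no comparison. Of these 19, 5, 1 and 4 were lower at 24 h, against 9, 2 and 8 at the longer time, while *LUC7L3* and *TIA1* were higher at 5 d in IMR-32. *PHF5A*, an SF3b subunit whose symbol the rule does not catch, was lower at the longer time in each line (-0.94 ± 0.07, -0.73 ± 0.13 and -0.72 ± 0.09), and so was *U2AF1*, which reads the 3′ splice site (-0.92 ± 0.09, -0.68 ± 0.15 and -0.85 ± 0.09). Of 17 tested U5 and U4/U6 proteins, 3, 0 and 1 were lower at 24 h, against 9, 2 and 3 at the longer time, with *SNRNP40* among them in each line. Of 10 proteins of the minor spliceosome, 2, 1 and 2 were lower at 24 h and 3, 3 and 3 later, with 1 higher in each line at the longer time.

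Of 8 decapping and decay partners of LSm1-7, 1, 2 and 1 were lower at 24 h, then 2, 0 and 2 at the longer time, those being *PATL1* and *DCP2*, the scaffold and the catalytic subunit of decapping. Of 8 U7 and histone processing genes, which include no member, 2, 3 and 2 were lower at 24 h, then 5, 3 and 3 at the longer time. *SLBP*, the histone stem-loop binding protein that is known to peak in S phase, was lower at both times in each line (-1.39 ± 0.10, -1.67 ± 0.14 and -1.12 ± 0.08 at 24 h), and rose from 24 h to 5 d in IMR-32 by 0.72 ± 0.14, the interval over which *LSM11* also rose. These counts stand beside the shares of all genes given above for the same comparisons.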

How the data were processed

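RNA of 45 cultures was sequenced as polyadenylated libraries. Per the submitters' processing notes, the authors trimmed reads with Trim Galore 0.6.4 and aligned them to hg19 with STAR 2.6.1d (the study's methods name another release of STAR), and deposited raw counts per gene for each line. The strand setting and annotation of the counting are not given in the sources used here. Deposited normalized values and the authors' own DESeq2 1.32.0 comparisons (fold changes and p-values) were not used. All rows of the count tables name a gene.

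Genes were filtered by edgeR's filterByExpr (minimum count 10, minimum total 15, proportion 0.7) and tested with edgeR 4.0.16 (R 4.3.3), TMM factors and the robust quasi-likelihood test, in 1 fit of 15 libraries per line. Differences between lines came from 1 fit of 45 libraries. Ratios used counts plus 0.5 and exact permutation tests. P-values measure the spread between platings of 1 line, and the biological coefficient of variation was 13.79% in SK-N-BE(2)C, 11.18% in SH-SY5Y and 19.85% in IMR-32. The fits were checked on simulated counts with 1 spread for all genes and lines and with independent libraries. That check does not cover spread that differs by gene or line, or libraries that deviate together.

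Same-numbered libraries deviated together: each pair's correlation of deviations from the group means was above 0.1 (lowest 0.109) in all comparisons except those with 7 d PB in SK-N-BE(2)C (lowest 0.0966 and 0.0482). The fit without this block is reported, with the block as an alternative. Other alternatives were RLE size factors, library size alone, no filter, DESeq2 1.42.0, adjusted p alone and each library or replicate number left out. Those added after the data were seen left out 4 IMR-32 libraries or summed libraries 3 to 5 of each SK-N-BE(2)C group. Gene positions are from GENCODE on GRCh37, and promoter sequences from RefSeq on GRCh38.p14. No promoter was printed for the 5 members without a RefSeq window.

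The members and lists were chosen with earlier results of these data known. All members are described, and values in every library are given for the 6 with the largest mean change among those called the same way at the longer time in all lines, for up to 4 called higher, and for *SNRPB*, *SNRPN*, *LSM1* and *LSM8*. *SNRPD2* was added after its values were seen.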

Additional observations from a re-analysis of the deposited data

Results flagged for a closer look

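In 4 of the 99 groups of 5 libraries examined (11 members in 9 groups), 1 library lay apart from the other 4 by Dixon's criterion, and chance gives about 1 in 20. These were *LSM1* at 31.6 CPM in IMR-32 control library 5, *LSM8* at 45.9 CPM in SH-SY5Y 5-d library 1, *SNRPD2* at 139 CPM in SK-N-BE(2)C control library 2 and *SNRPD2* at 314 CPM in IMR-32 24-h library 2. Both IMR-32 libraries are among those that stand apart over all genes.

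The response to PB passed edgeR's test of a difference between lines for 10 members. In the contrasts of the longer time, 18.8%, 18.8% and 6.25% of the 32 members other than *SNRPN* passed, beside 23.9%, 21.2% and 20.8% of all genes. *SNRPN* is given by value only, since it passed the low-count filter mainly through treated libraries in IMR-32 and SK-N-BE(2)C. At 24 h this was *SNRPA*, by -0.73 log2 units between SH-SY5Y and IMR-32. At the longer time, IMR-32 exceeded SK-N-BE(2)C by 0.54 for *LSM3*, 0.68 for *SF3A3*, 0.84 for *SNRPA1*, 0.60 for *SNRPB*, 0.59 for *SNRPC*, 0.53 for *SNRPF* and 1.25 for *SNRPN*. SH-SY5Y exceeded SK-N-BE(2)C by 0.63 for *LSM10*, 0.94 for *SNRPA1*, 0.53 for *SNRPB*, 0.54 for *SNRPC* and 0.55 for *SNRPD2*, and differed by -0.64 for *LSM11*. SH-SY5Y minus IMR-32 gave -0.61 for *LSM11*, -0.57 for *SNRPA* and -2.03 for *SNRPN*. Differences from SK-N-BE(2)C cannot be told apart from the 7 d against 5 d of treatment.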

How the results depend on the processing

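Values are given in the order 24 h, longer time and longer time against 24 h. On adjusted p alone, the members lower numbered 24, 28 and 16 in SH-SY5Y, 14, 21 and 11 in IMR-32, and 21, 27 and 24 in SK-N-BE(2)C, beside 22.8%, 32.5% and 21.4%, 15.6%, 25.6% and 17.8%, and 23%, 35.8% and 30% of all genes by that rule. From 24 h to 5 d, library size alone gave 0 in SH-SY5Y and 1 in IMR-32, and no filter gave 1 in SH-SY5Y. Without the 4 IMR-32 libraries that stand apart, chosen after seeing the data, the IMR-32 counts were 7, 11 and 1, *LSM8*/*LSM1* was -0.15 at 24 h and 0.28 from there to 5 d, and *SNRPN*/*SNRPB* was 0.87, 2.97 and 2.10. With libraries 3 to 5 of each SK-N-BE(2)C group summed, also chosen after seeing the data, the counts were 6, 23 and 14, *LSM10* (-0.48) and *SNRPN* (0.61) at 7 d no longer passed, and *SNRPA* at 24 h (-0.51) and *LSM10* (-0.51) and *SNRPD1* (-0.50) from 24 h to 7 d did. Leaving out a library, or all libraries of a replicate number, gave 6 to 11 (11 without the replicate 4 libraries), 15 to 19 and 0 to 3 in SH-SY5Y, 5 to 8, 23 to 26 and 11 to 14 in SK-N-BE(2)C, and 3 to 7, 11 to 13 and 1 to 5 in IMR-32. Between lines, 24-h counts were 0 to 0 (IMR-32 against SK-N-BE(2)C), 0 to 0 (SH-SY5Y against SK-N-BE(2)C) and 1 to 1, and longer counts 4 to 8, 4 to 7 and 2 to 5 (these ranges count *SNRPN*, with which the longer counts over all libraries are 7, 6 and 3). RLE size factors, DESeq2 and the replicate block each gave 1 in place of 0 for SH-SY5Y against SK-N-BE(2)C at 24 h. Over all genes, RLE changed that comparison's calls from 154 lower and 178 higher to 185 and 123.

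The replicate block changed 2 member calls, *SF3A3* at 5 d in SH-SY5Y and that of *SNRPA* between lines. For the ratios, the paired test of 5 pairs cannot go below 0.062, so it says nothing on stability. The paired differences for *SNRPN*/*SNRPB* were 0.61 and 0.94 in SH-SY5Y, 1.01, 2.87 and 1.87 in IMR-32, and 1.50, 2.38 and 0.88 for SK-N-BE(2)C. Those for *LSM8*/*LSM1* were -0.40 and -0.29 (24 h and longer against control) in SH-SY5Y and -0.27 and 0.42 (24 h, and longer against 24 h) in IMR-32. With a replicate number left out, *SNRPN*/*SNRPB* ranged over 1.30 to 1.64, 2.29 to 2.49 and 0.70 to 0.99 in SK-N-BE(2)C, 0.53 to 0.72, 0.78 to 1.10 and 0.06 to 0.51 in SH-SY5Y, and 0.81 to 1.09, 2.63 to 3.04 and 1.76 to 1.97 in IMR-32. *LSM8*/*LSM1* ranged over -0.17 to -0.06, -0.22 to -0.06 and -0.12 to 0.06 for SK-N-BE(2)C, -0.42 to -0.37, -0.34 to -0.26 and 0.06 to 0.15 for SH-SY5Y, and -0.33 to -0.20, 0.12 to 0.20 and 0.35 to 0.50 for IMR-32. No member call reversed. Counts near 1 CPM limit the precision of *SNRPN*, and the cause of the other changes was not tested.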
